A study of Caenorhabditis elegans with 6 samples.

Results

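The autophagy genes were followed in dauer larvae with and without *daf-16*, the gene of the FOXO transcription factor. They were taken by name: protein-coding genes called *atg*, *epg* or *lgg* with a number, plus *bec-1*, *unc-51*, *vps-34*, *sqst-1*, *hlh-30* and *mxl-3*. This gave 29 of the 20191 protein-coding genes in the count table. All 29 passed the filter on low counts, so each was tested. The rule reads names and not values, but it was set with earlier results of these data known.

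Autophagy encloses cytoplasm, organelles or protein aggregates in a membrane that closes into an autophagosome and then fuses with the lysosome, where the contents are broken down. A kinase complex starts the process, a lipid kinase complex marks the site, lipid carriers and scramblases feed the membrane, and ubiquitin-like proteins are attached to it. In *Caenorhabditis elegans* autophagy is required for normal dauer formation, and dauer larvae do not feed. DAF-16 is kept out of the nucleus by insulin signaling and is active in dauer.

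Whole dauer larvae were sequenced as mRNA. Control larvae carried *daf-7(e1372)*, a temperature-sensitive allele that drives larvae into dauer, and *daf-16(0)* larvae carried *daf-16(mgDf50)*, a deletion, in addition, so the controls were not wild type. Embryos of both strains were kept for 52 hours at 24 degrees, and dauers were picked by hand since part of the *daf-16(0)* animals does not become dauer. There were 3 libraries per genotype. The sample labels name the mutant strain VT2127 and the growth protocol names VT2317, with the same genotype. The protocol speaks of 2 biological replicates per strain. The authors' own deposited comparison set replicates 2 and 3 of *daf-16(0)* against replicates 1 and 2 of the control, which is the main comparison here ("4 libraries"), and all 6 libraries stand beside it and share those 4. The methods of the study mention outlier samples without naming them, and whether the 2 libraries outside the comparison are those is not stated.

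Protein-coding counts ranged from 8103772 to 17808548 per library. *daf-16* was between 40.3 and 63.5 normalized CPM (CPM is the count of a gene scaled to library size) in the *daf-16(0)* libraries and between 198 and 400 in the controls. Libraries of a genotype were not alike. The summed level of 4 dauer cuticle genes (*col-2*, *col-40*, *cut-1*, *cut-5*) was 20.6 CPM in *daf-16(0)* replicate 1 and 1180 and 1799 in replicates 2 and 3, against 32132, 42774 and 11102 in the controls. The 6 yolk genes summed to between 13848 and 25621 CPM in *daf-16(0)* and to 322, 124 and 18356 in the controls, so control replicate 3 stood apart from the other controls. Sperm genes summed to between 166 and 797 CPM in *daf-16(0)* and between 6.73 and 31.7 in control, and oocyte genes to between 144 and 1625 CPM against 63.3, 29.9 and 1130. Markers of muscle, neurons, intestine, hypodermis and pharynx were detected in all 6 libraries. The hypodermal collagen gene *dpy-7* was at 115 to 143 CPM in *daf-16(0)* and 6.84 to 17.4 CPM in control (log2 fold change 3.86 and 3.49, adjusted p = 0.00552 and 0.00428 in 4 and 6 libraries), and the muscle gene *myo-3* ranged from 262 to 1150 CPM and overlapped. These are mixed tissues, in which fewer cells of a type and less RNA per cell cannot be told apart, and the part of yolk, germline, cuticle and tissue RNA in the results below was not tested.

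Most autophagy genes were lower in *daf-16(0)* dauers, and few of them passed the test. In the 4 libraries, 24 of the 29 had a log2 fold change below 0, where 46.8% of all 13536 genes tested did. Their median log2 fold change was -0.58, beside 0.11 over all genes. At an adjusted p of at most 0.05 in edgeR's quasi-likelihood test 1 of the 29 was lower (*lgg-1*) and 0 were higher. Over all genes 9.59% were called lower and 5.37% higher. At an unadjusted p of at most 0.05, 12 members were lower, against 19% of all genes, and 0 higher, against 16.9%. DESeq2 called 6 lower (*atg-2*, *atg-9*, *bec-1*, *epg-5*, *lgg-1* and *sqst-1*), against 13.9%, and 0 higher. Leaving out 1 library gave between 0 and 4 members called lower, and the calls over all genes moved as well. Without *daf-16(0)* replicate 2 or 3 there were 0 members, beside 3.05% and 4.73% of all genes. Without control replicate 1 there was 1, beside 11.2%, and without control replicate 2 there were 4, beside 7.09%.

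With all 6 libraries the median was nearly the same. Here 25 of the 29 were below 0, beside 47.1% of the 13633 genes tested, with a median of -0.59 beside 0.09. The genes called were *bec-1* and *lgg-1*, 2 lower and 0 higher, beside 7.39% of all genes lower and 5.08% higher. At an unadjusted p of at most 0.05, 9 were lower, beside 16.2% of all genes, and 1 higher (*epg-3*), beside 13.9%. DESeq2 called 5 (*atg-13*, *atg-2*, *atg-7*, *bec-1* and *lgg-1*) lower, beside 12.1%, and 0 higher. Without control replicate 3 edgeR called 6 members lower, beside 11.8% of all genes. It called 0 without control replicate 1 or 2, beside 3.08% and 2.54% of all genes, and 0 without *daf-16(0)* replicate 1, 2 or 3, beside 2.98%, 1.19% and 2.79%.

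**Figure D1:**
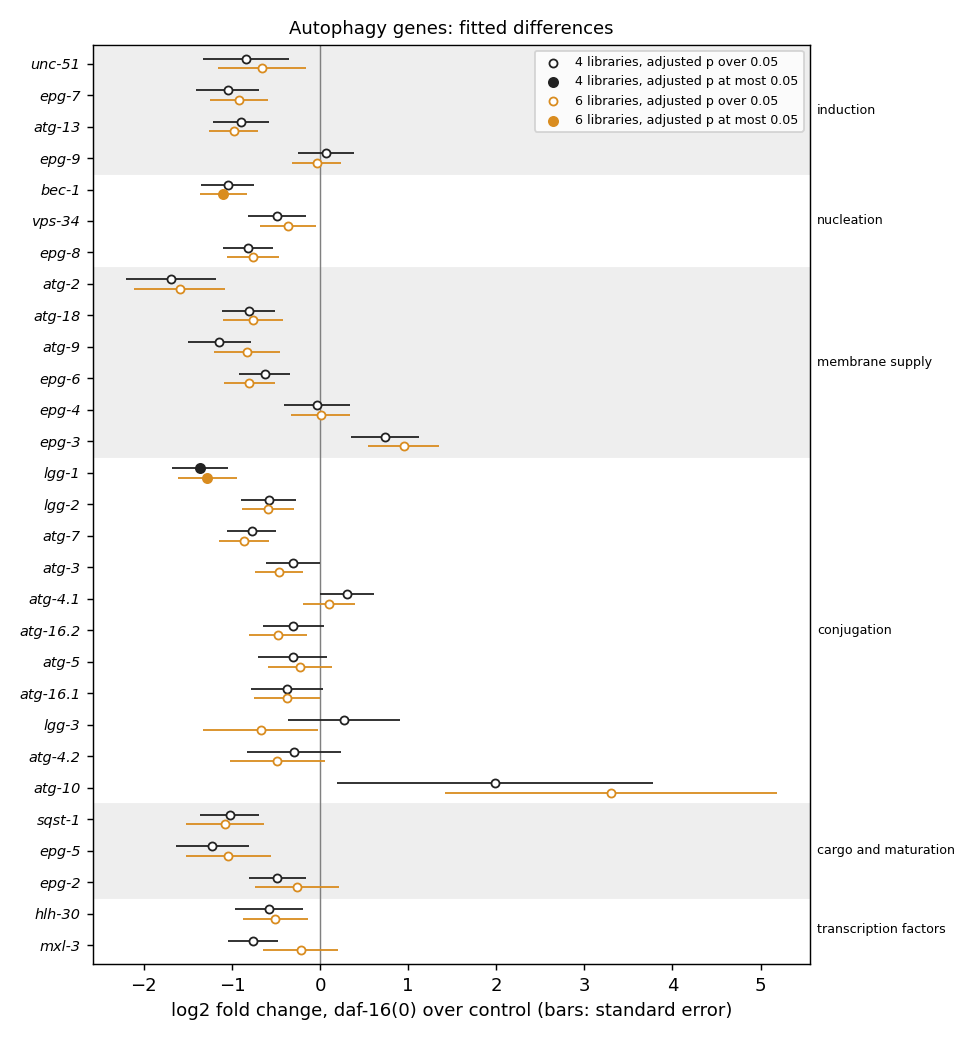
Log2 fold change of *daf-16(0)* over control for each of the 29 autophagy genes (x axis, bars are standard errors), grouped by role, in the 4 and in the 6 libraries. Filled points have an adjusted p of at most 0.05: *lgg-1* in both sets and *bec-1* in the 6 libraries, while 24 and 25 of the 29 points lie left of 0.

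The order of the libraries showed the same lean. In all 6 libraries, every *daf-16(0)* library was below every control for 10 members (*atg-13*, *atg-16.1*, *atg-3*, *atg-7*, *bec-1*, *epg-6*, *epg-7*, *epg-8*, *lgg-1* and *sqst-1*), beside 19.6% of all genes. It was above every control for 2 (*atg-10* and *epg-3*), beside 21.3%, and the genotypes overlapped for the other 17. In the 4 libraries 20 members were below without overlap and 2 above, beside 33.2% and 36.7% of all genes. Control replicate 3 was the lowest control for 19 of the 29 members, and for 43.1% of all genes. *daf-16(0)* replicate 1 was the lowest of its genotype for 16 members, and for 37.6% of all genes.

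**Figure D2:**
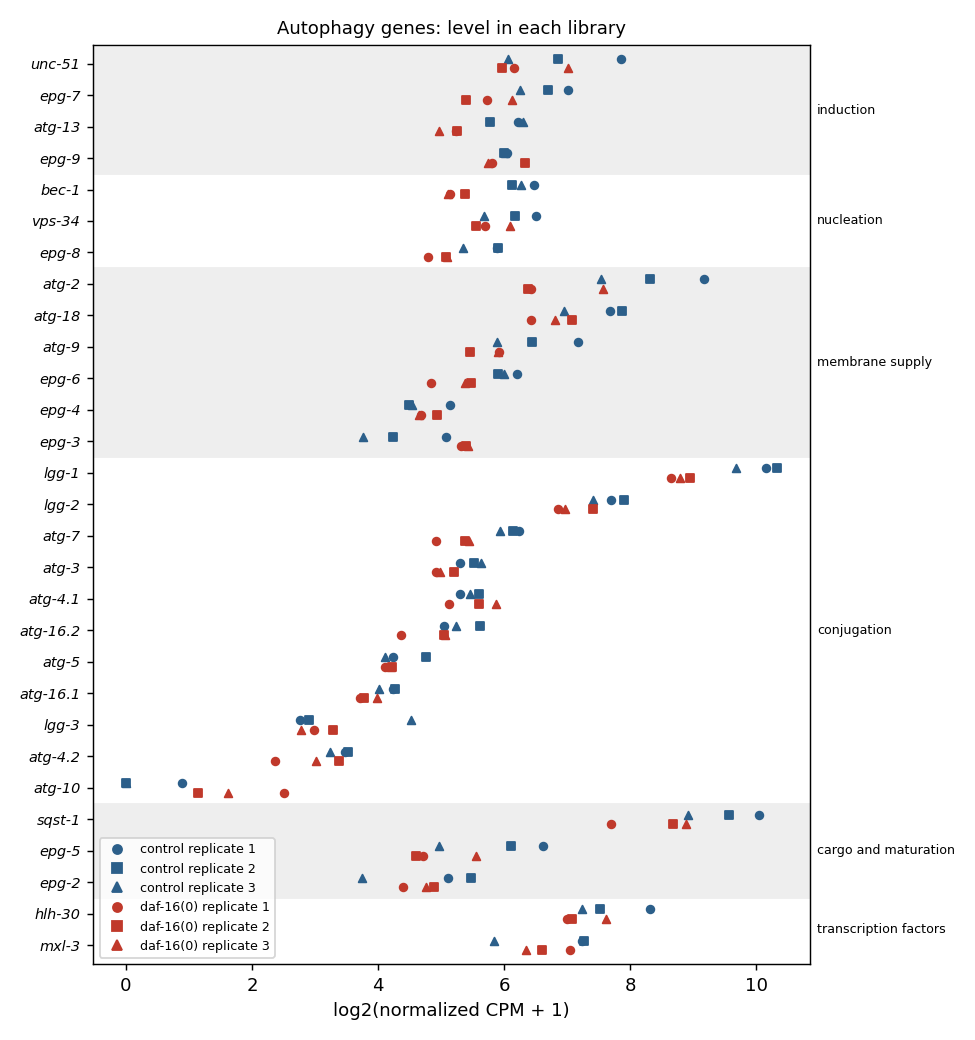
Level of each autophagy gene in each of the 6 libraries, as log2 of normalized CPM plus 1 (x axis), grouped by role, with control in blue, *daf-16(0)* in red and a marker shape per replicate. The red points lie left of the blue ones without overlap for 10 genes and right of them for *atg-10* and *epg-3*.

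Measured per kilobase of exon, *lgg-1* was the most abundant of these mRNAs in control dauers, at a mean of 1530 CPM per kb (1154 to 1823 over the 3 libraries). It was followed by *sqst-1* at 340 CPM per kb (213 to 470) and *lgg-2* at 197 CPM per kb (162 to 229), which overlapped each other and not *lgg-1*. *mxl-3* and *atg-18* came next, at 118.6 and 104 CPM per kb. In *daf-16(0)* the order of the first 4 was kept, at 629, 161, 131 and 102 CPM per kb for *lgg-1*, *sqst-1*, *lgg-2* and *mxl-3*. The rarest were *atg-10*, *atg-4.2* and *epg-3*, at 0.54, 5.70 and 6.99 CPM per kb in control.

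As a sum over the 29 genes, autophagy mRNA took 1830, 2270 and 2474 CPM in *daf-16(0)* replicates 1 to 3 and 5039, 4271 and 2875 CPM in the controls. Each *daf-16(0)* sum was below each control sum. *lgg-1* and *sqst-1* carried much of it. The other 27 genes summed to 1221, 1370 and 1561 CPM in *daf-16(0)* and to 2838, 2223 and 1578 CPM in control, where *daf-16(0)* replicate 3 and control replicate 3 lay close together.

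Both Atg8 homologs, the proteins attached to the autophagosome membrane, were below 0, and *lgg-1* was called in both sets. *lgg-1* (WBGene00002980, chromosome II of WBcel235, 6346960 to 6347719, reverse strand) encodes the GABARAP-type Atg8 homolog, the protein most used to mark autophagosomes in worms. It was at 402, 494 and 442 CPM in *daf-16(0)* replicates 1 to 3 and at 1143, 1291 and 817 CPM in the controls. The highest *daf-16(0)* library was well under the lowest control, control replicate 3. The means were 446 ± 46.2 and 1084 ± 243 CPM (SD, n = 3 each). *lgg-1* was 2.57-fold lower in the 4 libraries (log2 fold change -1.36, standard error (SE) 0.32, adjusted p = 0.0381) and 2.43-fold lower in all 6 (log2 fold change -1.28, SE 0.33, adjusted p = 0.0447) by edgeR's test. Its size hardly moved when a library was left out (-1.46 to -1.26 in the 4 and -1.44 to -1.15 in the 6 libraries), but the call did. It was lost in the 4 libraries without *daf-16(0)* replicate 2 (adjusted p = 0.209) or 3 (adjusted p = 0.189). In the 6 it was lost without any 1 library other than control replicate 3, with adjusted p between 0.0963 and 0.165, and narrowly without the filter on low counts (adjusted p = 0.0581). Over all alternatives its adjusted p ranged from 0.000256 to 0.209 in the 4 and from 0.000625 to 0.165 in the 6 libraries.

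*lgg-2* encodes the LC3-type Atg8 homolog (WBGene00002981, chromosome IV, 10934186 to 10935914, reverse strand). Its levels were 114, 170 and 124 CPM in *daf-16(0)* and 207, 238 and 169 CPM in control. The genotypes met at *daf-16(0)* replicate 2 and control replicate 3, and *lgg-2* did not pass the test (log2 fold change -0.58, SE 0.31, adjusted p = 0.227 in the 4 libraries, and -0.59, SE 0.29, adjusted p = 0.219 in the 6). It overlaps *lsm-7* on the other strand by 15 bases.

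Counts of the pair within a library do not depend on how libraries are scaled. The ratio of *lgg-1* to *lgg-2* counts was 3.51, 2.91 and 3.58 in *daf-16(0)* replicates 1 to 3 and 5.53, 5.42 and 4.85 in the controls. All *daf-16(0)* ratios lay below all control ratios, with means of 3.33 ± 0.37 and 5.27 ± 0.37 (SD, n = 3 each), a log2 difference of -0.66. A two-sided exact permutation test on the log2 ratios gave p = 0.1, the smallest that 3 against 3 can give, and p = 0.3 after Benjamini-Hochberg adjustment over the 3 paralog pairs. The pairs were chosen after the data were seen. For the protease pair *atg-4.1* and *atg-4.2* the ratio was 8.08, 5.02 and 8.14 in *daf-16(0)* and 3.83, 4.54 and 5.12 in control, which overlapped (exact p = 0.2, adjusted 0.3). For *atg-16.1* over *atg-16.2* the ratios were close to each other, with means of 0.49 ± 0.11 and 0.45 ± 0.09 (SD, n = 3 each, exact p = 0.6, adjusted 0.6).

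**Figure D3:**
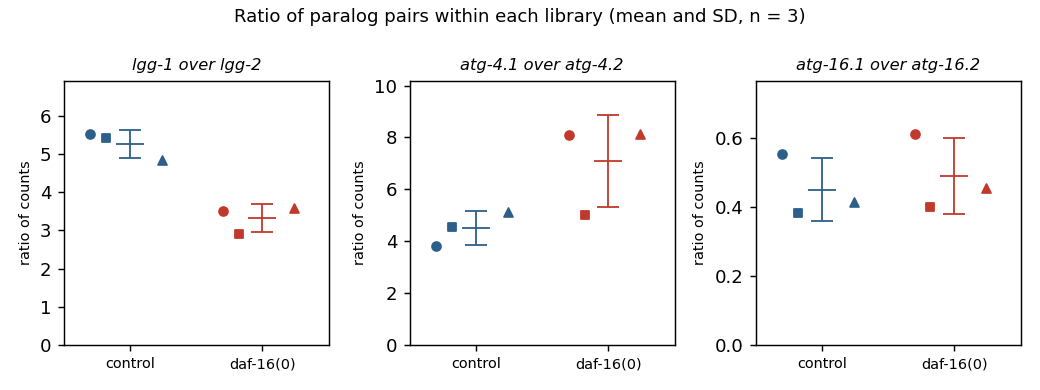
Ratio of expected counts within each library for the 3 paralog pairs (y axis, points are libraries, horizontal ticks are mean and SD, n = 3). The *lgg-1* to *lgg-2* ratio is between 2.91 and 3.58 in *daf-16(0)* and between 4.85 and 5.53 in control, and the other pairs overlap.

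The enzymes that attach the ubiquitin-like proteins were mostly below 0 too, and edgeR called none of them in either set. *atg-7* was called by DESeq2 in the 6 libraries. Of the 11 genes of this conjugation group, Atg8 homologs included, 8 were below 0 in the 4 libraries and 9 in the 6. Their median log2 fold change was -0.31 and -0.47. Over all genes 46.8% and 47.1% were below 0. *atg-7*, the E1-like enzyme that activates both ubiquitin-like proteins, was between 29.1 and 42.5 CPM in *daf-16(0)* and between 59.9 and 74.2 CPM in control, without overlap (log2 fold change -0.78, adjusted p = 0.103 in the 4 and -0.86, adjusted p = 0.0829 in the 6 libraries). It shares 67 bases with *let-70* on the same strand, a gene of up to 7898 counts. *atg-3*, the E2-like enzyme for the Atg8 homologs, also did not overlap, at 29.4 to 36.1 CPM against 38.5 to 48.9 CPM, with a log2 fold change of -0.31 in the 4 and -0.46 in the 6 libraries (adjusted p = 0.506 and 0.293).

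The Atg12 branch gave small or unstable values. *atg-5*, which accepts the Atg12 homolog, had log2 fold changes of -0.31 and -0.23, *atg-16.1* of -0.38 and -0.37 and *atg-16.2* of -0.30 and -0.47 in the 4 and the 6 libraries. The proteases that trim the Atg8 homologs went to either side, at 0.30 and 0.10 for *atg-4.1* and -0.30 and -0.48 for *atg-4.2*. The adjusted p of these 5 genes was 0.370 or more in both sets. *lgg-3*, the Atg12 homolog, was at 0.27 in the 4 and -0.67 in the 6 libraries, and control replicate 3 held 21.9 CPM where the other 5 libraries held between 5.82 and 8.79 CPM. Without control replicate 3 its value over the rest was 0.24.

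*atg-10*, the E2-like enzyme for the Atg12 homolog (WBGene00008427, chromosome II, 8659135 to 8659800, forward strand), was barely detected. It had 72, 11 and 27 counts in *daf-16(0)* replicates 1 to 3 and 6, 0 and 0 counts in the controls, or 4.70, 1.21 and 2.06 CPM against 0.85, 0 and 0 CPM. A count of 0 allows up to 3 counts, 0.342 CPM in control replicate 2 and 0.154 CPM in control replicate 3, for counting error only. The *daf-16(0)* libraries were all higher, but the fitted values were wide (log2 fold change 1.99, SE 1.80, adjusted p = 0.454 in the 4 and 3.30, SE 1.89, adjusted p = 0.279 in the 6 libraries). Without control replicate 1 the fitted value was 7.09 in the 4 and 8.14 in the 6 libraries, and without control replicate 2 it was 0.96 and 2.68. It was the only member at or under 3 counts in any library. The other 28 had at least 41 counts everywhere.

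In the complex that marks the site of membrane growth, *bec-1* was lower. It encodes the Beclin 1 homolog (WBGene00000247, chromosome IV, 5661141 to 5664425, reverse strand), a subunit of the VPS-34 lipid kinase complex. The *daf-16(0)* libraries had 34.5, 40.8 and 33.5 CPM and the controls 87.6, 68.5 and 76.5 CPM. The libraries of a genotype lay close together here and the genotypes far apart, and control replicate 3 was in the middle of its group. The means were 36.2 ± 3.96 and 77.5 ± 9.58 CPM (SD, n = 3 each). In the 6 libraries the fitted log2 fold change was -1.10 (2.14-fold lower, SE 0.27, adjusted p = 0.0369) and -1.05 in the 4, where it missed the threshold (SE 0.30, adjusted p = 0.0654). The call in the 6 libraries was lost without any 1 library except control replicate 3 (adjusted p between 0.0725 and 0.120, log2 fold change -1.19 to -0.99). Over all alternatives the adjusted p ran from 0.00402 to 0.137 in the 6 and from 0.0394 to 0.252 in the 4 libraries.

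The partners of *bec-1* had smaller differences that did not pass. *epg-8*, the Atg14 homolog that directs the complex to autophagy, was at 26.8 to 33.0 CPM in *daf-16(0)* and 39.6 to 59.2 CPM in control, without overlap (log2 fold change -0.82, adjusted p = 0.0967 in the 4 and -0.76, adjusted p = 0.125 in the 6 libraries). *vps-34*, the phosphatidylinositol 3-kinase itself, which also serves endocytosis, overlapped between genotypes and was at -0.49 and -0.36 (adjusted p = 0.314 and 0.476).

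**Figure D4:**
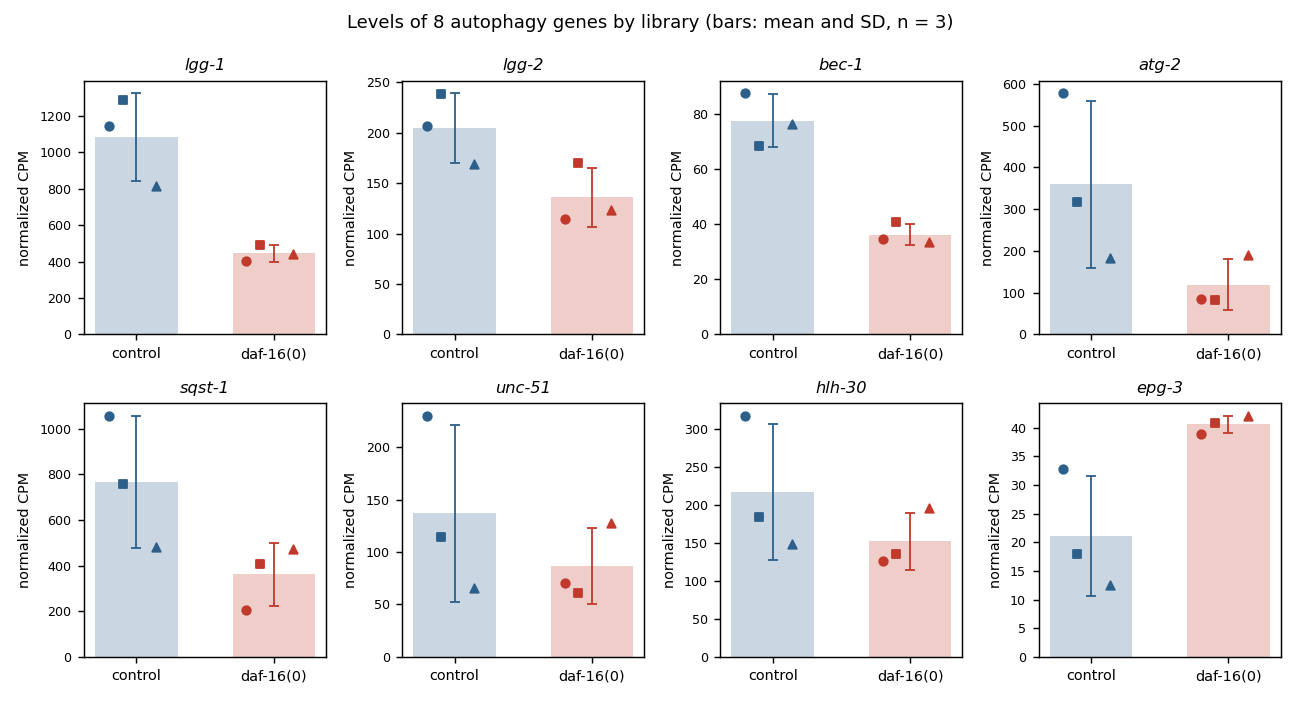
Normalized CPM of 8 autophagy genes in each library (y axes start at 0, points are libraries with the marker of each replicate as in the plot of all members, bars are mean and SD, n = 3). *lgg-1* and *bec-1* separate the genotypes by a wide gap, *atg-2*, *unc-51* and *hlh-30* overlap through *daf-16(0)* replicate 3 and control replicate 3, and *epg-3* is higher in *daf-16(0)*.

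Of the 4 genes of the complex that starts autophagy, 3 were below 0 in the 4 libraries and 4 in the 6, where *epg-9* was at -0.04. Over all genes 46.8% and 47.1% were below 0. None of the 4 genes was called by edgeR. At an unadjusted p of at most 0.05 in edgeR, 2 (*atg-13* and *epg-7*) were lower in each set, beside 19% and 16.2% of all genes. *unc-51* encodes the Atg1/ULK kinase (WBGene00006786, chromosome V, 19995986 to 20004485, reverse strand). It was at 70.2, 61.3 and 128 CPM in *daf-16(0)* and at 230, 115 and 65.5 CPM in control. The highest mutant library was above 2 of the controls, and the log2 fold change of -0.84 (SE 0.49, adjusted p = 0.255) in the 4 libraries was -0.66 (SE 0.50, adjusted p = 0.413) in the 6. Without control replicate 1 it was -0.27 and -0.05, and without *daf-16(0)* replicate 3 it was -1.44 and -1.06. *atg-13*, its regulatory partner, was steadier, at 36.6, 37.0 and 30.3 CPM against 73.7, 53.6 and 77.8 CPM. It did not overlap and had log2 fold changes of -0.90 (adjusted p = 0.0994) and -0.98 (adjusted p = 0.0581). *epg-7*, a scaffold of the kinase complex related to FIP200, was at 41.1 to 69.0 CPM against 75.2 to 129 CPM, with -1.05 (adjusted p = 0.0893) and -0.92 (adjusted p = 0.104). *epg-9*, the ATG101 homolog, was at 0.07 and -0.04 (adjusted p = 0.896 and 0.945).

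Genes that supply the growing membrane held the lowest log2 fold change of all members and one of the highest. *atg-2* encodes a lipid transfer protein (WBGene00019748, chromosome X, 6809104 to 6817266, forward strand). It was at 85.4, 82.0 and 190 CPM in *daf-16(0)* and at 578, 316 and 184 CPM in control. The first 2 mutant libraries were far under the first 2 controls, while the third library of each genotype met. The log2 fold change was -1.69 (SE 0.51, adjusted p = 0.0709) in the 4 and -1.59 (SE 0.52, adjusted p = 0.0833) in the 6 libraries. *atg-9*, the lipid scramblase on the vesicles that seed the membrane (WBGene00020706, chromosome V, 349374 to 359016, forward strand), was at 59.8, 43.1 and 58.6 CPM against 143, 85.9 and 58.3 CPM. It too separated the genotypes only when control replicate 3 was not used, at -1.14 (SE 0.36, adjusted p = 0.0770) and -0.83 (SE 0.38, adjusted p = 0.182).

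*atg-18* and *epg-6* read the lipid made by VPS-34, and neither passed. *atg-18* was at -0.81 and -0.76 (adjusted p = 0.106 and 0.176), and *epg-6*, which did not overlap, at -0.63 and -0.80 (adjusted p = 0.172 and 0.109). *epg-4*, an EI24 homolog of the endoplasmic reticulum, was at -0.03 and 0.01 (adjusted p = 0.958 and 0.990). *epg-3*, the VMP1 homolog that also sits in the endoplasmic reticulum, stood above 0 in both sets. It was at 38.9, 40.9 and 42.0 CPM in *daf-16(0)* and at 32.8, 17.9 and 12.6 CPM in control. The mutant libraries were nearly equal and all above the controls, but the test was not passed (log2 fold change 0.73, SE 0.38, adjusted p = 0.217 in the 4 and 0.95, SE 0.40, adjusted p = 0.154 in the 6 libraries).

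The 3 members that act on cargo or in fusion, *sqst-1*, *epg-5* and *epg-2*, were also below 0 in both sets. Over all genes the share below 0 was 46.8% in the 4 and 47.1% in the 6 libraries. *sqst-1* encodes the p62 homolog, a receptor that ties ubiquitinated cargo to LGG-1 (WBGene00011737, chromosome IV, 12034252 to 12037051, forward strand). Its levels were 207, 407 and 471 CPM in *daf-16(0)* and 1058, 757 and 480 CPM in control. The genotypes did not overlap, though *daf-16(0)* replicate 3 and control replicate 3 were almost equal. The log2 fold change was -1.03 (SE 0.33, adjusted p = 0.0830) and -1.08 (SE 0.44, adjusted p = 0.146). *epg-5*, a tether for fusion of autophagosome and lysosome (WBGene00016968, chromosome II, 6603441 to 6609356, reverse strand), was at 25.3, 23.4 and 45.9 CPM against 97.1, 67.7 and 30.1 CPM. It overlapped through the third libraries, with -1.22 (SE 0.41, adjusted p = 0.0905) and -1.04 (SE 0.48, adjusted p = 0.187). *epg-2*, a scaffold for aggregate cargo in embryos, was at -0.48 and -0.26 (adjusted p = 0.325 and 0.747), and it lies wholly within *tpxl-1* on the other strand, a gene of up to 1412 counts.

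The level of long genes differed between libraries, and 3 of these members are long. *atg-2*, *epg-5* and *epg-7* have at least 4 kb of exons. Relative to each gene's mean over the 6 libraries, their median log2 level was -0.71, -0.82 and 0.01 in *daf-16(0)* replicates 1 to 3 and 1.19, 0.68 and -0.04 in the controls. The 743 genes of that length among all genes had medians of -0.12, -0.44 and 0.26 in *daf-16(0)* and 0.69, 0.02 and -0.36 in control, while the 12879 shorter genes lay between -0.08 and 0.11. The 26 shorter members lay at -0.38, -0.09 and -0.19 in *daf-16(0)* and at 0.46, 0.29 and -0.02 in control, each mutant library under each control. The 4 kb cut was a chosen setting. The next longest members were *atg-9* (3589 bases of exon), *hlh-30* (3268), *epg-3* (3015), *unc-51* (2897) and *vps-34* (2802). Each of them also fell from control replicate 1 to 2 to 3. *daf-16(0)* replicate 3 was the highest of its genotype for each of them except *atg-9*. The part of transcript length in the values of the members, those under 4 kb included, was not tested.

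Of the transcription factors, *hlh-30* encodes the TFEB homolog that activates autophagy and lysosome genes (WBGene00020930, chromosome IV, 4014799 to 4034784, reverse strand). It was at 127, 135 and 195 CPM in *daf-16(0)* and at 317, 184 and 149 CPM in control. Control replicate 1 stood above the rest and the other libraries were mixed, with a log2 fold change of -0.58 (SE 0.38, adjusted p = 0.310) and -0.51 (SE 0.37, adjusted p = 0.389). Without control replicate 1 its values were -0.15 and -0.12. *mxl-3*, a repressor that opposes HLH-30 (WBGene00003511, chromosome X, 13349639 to 13350804, reverse strand), was at 132, 95.7 and 80.7 CPM against 150, 153 and 56.1 CPM. Control replicate 3 was the lowest of all 6 libraries, and the log2 fold change was -0.76 (SE 0.28, adjusted p = 0.110) in the 4 and -0.22 (SE 0.42, adjusted p = 0.762) in the 6 libraries.

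Lysosomal and related genes were described by lists. The vacuolar ATPase genes were taken by name (*vha* with a number, plus *unc-32* and *spe-5*), and the genes of the other lists were picked one by one. The vacuolar ATPase acidifies the lysosome, and on which membranes the subunits act in these larvae was not tested. Of its 22 subunit genes 21 were above 0 in each set. Their median log2 fold change was 0.76 in the 4 and 0.67 in the 6 libraries. Over all genes 46.8% and 47.1% were below 0. For 13 of the subunit genes every *daf-16(0)* library was above every control, where 21.3% of all genes had that order. *vha-6*, an intestinal subunit, rose in the 4 libraries (log2 fold change 1.32, SE 0.32, adjusted p = 0.0413), from 342, 290 and 190 CPM in control to 513, 698 and 855 CPM in *daf-16(0)*. In the 6 libraries it was at 1.33 with an adjusted p of 0.0510, and there edgeR called no subunit, while with RLE scaling it called *vha-6* (adjusted p = 0.0441). At an unadjusted p of at most 0.05, 12 subunits were higher in the 4 and 7 in the 6 libraries, beside 16.9% and 13.9% of all genes. DESeq2 called 9 and 7 higher, beside 10.9% and 10.5% of all genes. The exception in sign was *unc-32*, a subunit form found in neurons, at -0.70 and -0.51 (adjusted p = 0.139 and 0.378).

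Of 12 genes for docking and fusion with the lysosome (*rab-7*, the HOPS subunits, the SNAREs and others), edgeR and DESeq2 called 0. In edgeR 0 passed an unadjusted p of at most 0.05, and the medians were 0.08 and 0.31. At that unadjusted p, 19% and 16.2% of all genes were lower and 16.9% and 13.9% higher. *snap-29* had the lowest value of the 12, at -0.64 and -0.57 (adjusted p = 0.166 and 0.202). In all 6 libraries it was the 1 fusion gene below every control, beside 19.6% of all genes. Above every control were 3 (*vps-18*, *vps-33.1* and *ccz-1*), beside 21.3%. Selective autophagy genes (*sepa-1*, *allo-1*, *ikke-1*, *dct-1*, *pink-1* and *pdr-1*) had a median nearer to that of the core genes. The 5 of 6 that could be tested had a median of -0.59 in the 4 and -0.52 in the 6 libraries. None of them was called by edgeR or DESeq2. At an unadjusted p of at most 0.05 in edgeR, 2 were lower in each set, beside 19% and 16.2% of all genes. In all 6 libraries 2 (*allo-1* and *pink-1*) were below every control, beside 19.6% of all genes, and 0 above, beside 21.3%. *sepa-1*, a cargo receptor of embryos, had no count outside control replicate 3. Among 7 lysosome membrane genes *ctns-1*, homolog of the cystine transporter cystinosin, fell in both sets (log2 fold change -1.47, SE 0.31, adjusted p = 0.0307, and -1.53, SE 0.29, adjusted p = 0.0177). It was at 31.4, 46.8 and 33.8 CPM in *daf-16(0)* and at 124, 103 and 96.2 CPM in control, while the median of the 7 was -0.07 and 0.14. In all 6 libraries 3 of the 7 were above every control (*cup-5*, *laat-1* and *clh-6*), beside 21.3% of all genes. Below every control were 2 (*ctns-1* and *scav-3*), beside 19.6%. DESeq2 called *ctns-1* lower in both sets and *scav-3* in the 6 libraries, beside 13.9% and 12.1% of all genes.

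**Figure D5:**
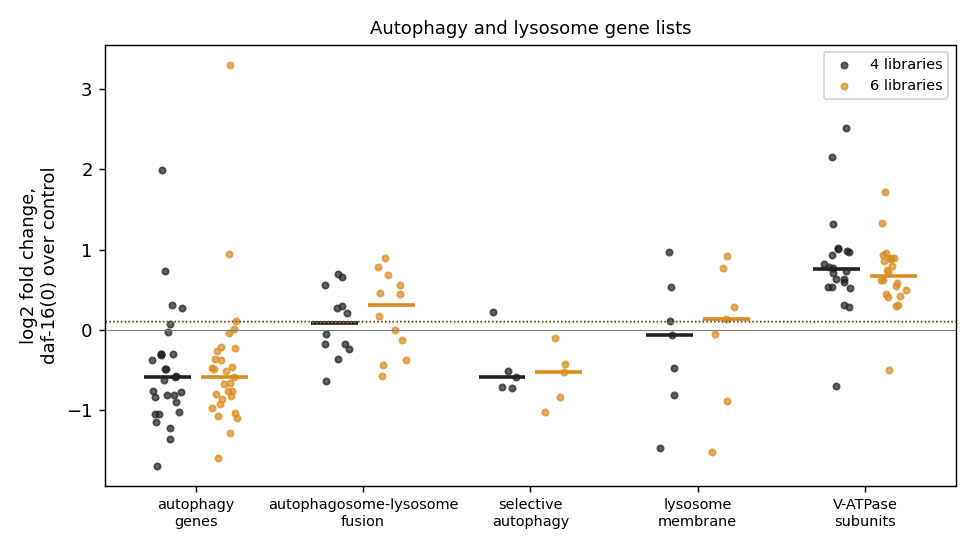
Log2 fold change of *daf-16(0)* over control (y axis) for the 29 autophagy genes and 4 lists of related genes, each point a gene, in the 4 (black) and the 6 (orange) libraries. Short bars are medians (-0.58 and -0.59 for the autophagy genes, 0.76 and 0.67 for the vacuolar ATPase), and dotted lines are the medians over all genes tested, 0.11 and 0.09.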

How the data were processed

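mRNA of whole dauer larvae was sequenced by the authors as paired reads from an unstranded kit (TruSeq RNA v2), in 3 libraries per genotype. Per the submitters' notes, reads were trimmed (Trimmomatic 0.39), aligned to WBcel235 (STAR 2.4.2a) and quantified (RSEM 2.1), with FastQC 0.11.7 and DESeq2 1.30.0 used afterwards. The authors deposited expected counts per gene, not normalized, for the 6 libraries. Their normalized counts of 4 libraries and their fold changes and p-values were not used here.

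Expected counts of 20191 protein-coding genes were rounded (1.57% to 2.78% of values per library were not whole). They were tested with edgeR 4.0.16 in R 4.3.3 (TMM scaling, filterByExpr, quasi-likelihood fit, Benjamini-Hochberg over all genes tested), in the 4 libraries of the authors' comparison and in all 6. The standard errors given are approximate: each is the absolute log2 fold change divided by the square root of the F statistic of that test. Summaries used Python 3.11, pandas 2.3.3 and SciPy 1.17.1. Both edgeR and DESeq2 were run on simulated counts with log2 changes of 3, larger than those of nearly all members, and with the same spread for every gene. That check does not show how often changes of the size seen here are found. DESeq2 gave a larger share of false calls in it than edgeR. Levels are CPM scaled over 6 libraries, where 3 counts correspond to 0.154 to 0.426 CPM. Exon lengths are from Ensembl 115, which holds 20105 of the genes and gives 8 of the 29 members the same coordinates as the deposited table. Coordinates are those of the table. The kit was unstranded, so strand could not tell apart the reads of overlapping genes. Whether counting used strand is not given in the sources used here. 8 members overlap another protein-coding gene.

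Alternatives were DESeq2 1.42.0, RLE scaling, no filter, a mean of at least 10 counts, a fold threshold (1 on the log2 scale), a replicate block and leaving out each library. Nothing states that all 3 libraries came from separate cultures, so p-values measure the spread between these samples, which may be technical. Values per library are given for *unc-51*, *bec-1*, *lgg-1*, *lgg-2*, *sqst-1*, *hlh-30* and *mxl-3*. The same holds for members with an adjusted p of at most 0.05 and members at or under 3 counts. It holds too for the 5 largest log2 fold changes in the 4 libraries. Of the fusion, selective autophagy, vacuolar ATPase and lysosome membrane lists, genes called by edgeR in the 4 libraries are named. Further values (*atg-13*, *epg-3*, *lgg-3* and other ranges, *unc-32*, *snap-29*, *sepa-1*) were chosen after they were seen. So were the other fusion, selective autophagy and lysosome membrane genes named for the order of their libraries or a DESeq2 call. The members and lists were chosen with earlier results of these data known. A planned promoter search was not done, and promoter sequence is not used here.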

Additional observations from a re-analysis of the deposited data

How the results depend on the processing

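The number of autophagy genes called lower depended on the method and on single libraries, and the direction of most of them did not. With 4 libraries edgeR called 1 lower, beside 9.59% of all genes. DESeq2 called 6, beside 13.9%, and edgeR without a filter on low counts 6, beside 11.4%. With 6 libraries edgeR called 2, beside 7.39%, DESeq2 5, beside 12.1%, and edgeR without a filter 1, beside 6.02%. Leaving out 1 of the 6 libraries gave 0 to 6, beside 1.19% to 11.8% of all genes. RLE scaling, a mean of at least 10 counts and a fold threshold (1 on the log2 scale) left the edgeR counts of 1 and 2 as they were. Members below every control without overlap numbered 10 in 6 libraries and 20 in 4, beside 19.6% and 33.2% of all genes. Of the alternatives run, only leaving out 1 library turned the sign of a log2 fold change, and none of the genes it turned was called. *lgg-3*, *epg-4* and *epg-9* also differed in sign between the 4 and the 6 libraries (0.27 and -0.67, -0.03 and 0.01, 0.07 and -0.04). In 4 libraries its range was -0.57 to 0.017 for *atg-16.2*, -0.34 to 0.33 for *epg-4*, -0.23 to 0.36 for *epg-9* and -0.026 to 0.55 for *lgg-3*. In 6 libraries it was -0.090 to 0.29 for *atg-4.1*, -0.62 to 0.10 for *epg-2*, -0.12 to 0.27 for *epg-4*, -0.22 to 0.067 for *epg-9* and -0.98 to 0.24 for *lgg-3*. Where leaving out a library left 1 of a genotype, that library was assumed to vary like the other genotype. Fitting replicate numbers as a replicate block in the 6 libraries left 0 members called (1.63% of all genes lower), with an adjusted p of 0.164 for *lgg-1* and 0.137 for *bec-1*. Same-numbered libraries did not deviate together (correlations over genes of -0.12, -0.01 and -0.31), so the numbers were not taken as pairs. In the 4 libraries only number 2 is shared, and no block could be fitted. Called V-ATPase genes numbered 1 in 4 libraries by edgeR and 9 by DESeq2, and 0 and 7 in 6 libraries, where edgeR with RLE scaling called 1. Over all genes edgeR called 5.37% and 5.08% higher in the 4 and the 6 libraries, and DESeq2 called 10.9% and 10.5%. The number of libraries limits the precision: the SE of a log2 fold change was between 0.28 and 1.80 over the members with 4 libraries and between 0.27 and 1.89 with 6.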
